A study of Rattus norvegicus with 4 samples.

Results

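Picalm, the gene of the phosphatidylinositol binding clathrin assembly protein, gave 14 circular RNAs (circRNAs) of the 4942 listed in rat sciatic nerve. They were found by the host symbol Picalm (ENSRNOG00000018322) that the deposited files give beside each circRNA. The gene was singled out with its values known: it has one of the largest numbers of circRNAs of any host, and its summed reads were higher after nerve crush. The difference between crush and sham nerve is therefore described here and supports nothing by itself.

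A circRNA is closed by a back-splice, in which the splice donor at the end of a downstream exon is joined to the acceptor at the start of an upstream exon. Reads across that junction are the only ones counted here. The Picalm protein binds phosphoinositides of the plasma membrane, brings clathrin and the AP-2 adaptor to the growing coat, and sorts small SNARE proteins of the VAMP family into endocytic vesicles. It is known from mouse for its part in transferrin receptor uptake by red cell precursors, and in human its gene is a risk locus of Alzheimer's disease and a fusion partner in leukaemia. It is expressed in many cell types, and in crushed nerve both Schwann cells and incoming phagocytes take up myelin debris.

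The samples were sciatic nerves of Sprague-Dawley rats in postnatal week 6, sequenced as total RNA with 2 libraries per group. In the crush group 3 mm of nerve had been squeezed with a hemostat 2 times for 15 s, 3 s apart. In the sham group the nerve had been exposed and left intact. All nerves were taken 24 h after the operation, and from crushed nerves the 3 mm lesion was taken with 1 mm on either side. The labels name no separate animals behind the 2 libraries of a group, so the spread between them may be technical. The libraries held 8250 and 9027 back-splice junction reads in crushed nerve and 9018 and 8726 in sham nerve.

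The genes that define the tissue and the cells in it could be checked through their circRNAs alone, which many expressed genes lack. Of 25 Schwann cell and myelin genes 3 had circRNAs (Ugt8, Pmp22 and Mbp), with 4 junction reads in all in each crush library and 8 to 13 in the sham libraries, while Sox10 and Prx were among those with none. Of 36 leukocyte genes 15 had circRNAs, led by the neutrophil receptor gene Csf3r and the kinase gene Syk, and their sum was 77 to 82 reads in crushed nerve against 0 to 2 in sham nerve. The sham reads were all of Mrc1, which had 0 and 0 reads in crushed nerve and 0 and 2 in sham nerve. Among the leukocyte genes with no circRNA listed were Csf1r, Cd68, S100a8 and S100a9. Of 24 skeletal muscle genes 5 had circRNAs, led by Mlip and Mybpc2, with 76 to 81 reads in crushed nerve against 209 to 239 in sham nerve, and Ttn, Ckm and Acta1 had none. Mlip alone had 76 and 79 of these reads in crushed nerve and 204 and 226 in sham nerve, and Ryr1 had 0 and 2 against 0 and 0. Fibroblast and perineurial genes (2 of 10, Dcn and Col5a1) had 0 to 7 reads per crush library and 2 per sham library. Here too the genes differed in direction: Dcn had 0 and 7 reads in crushed nerve against 0 and 0 in sham nerve, and Col5a1 had 0 and 0 against 2 and 2. Endothelial genes (4 of 8, led by Flt1 and Tek) had 8 reads per crush library and 7 to 11 per sham library. Their members went opposite ways. Flt1 had 8 and 8 reads in crushed nerve against 4 and 4 in sham nerve, and Tek had 0 and 0 against 3 and 3. The remaining endothelial hosts had reads in sham nerve alone. Of 6 fat cell genes Pparg alone had a circRNA, with no reads in crushed nerve and 0 to 2 in sham nerve. The leukocyte sum, the muscle sum that is nearly all Mlip, and the small Schwann cell and myelin sum led by Ugt8 thus moved with the groups. The part of these 3 sums in the Picalm values was not tested.

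The 14 circRNAs are numbered here by position, all on the plus strand of chromosome 1 in the build Rnor_6.0 named by the submitters, between 154405931 and 154447475. Whether positions count from 0 or 1 is not stated. On this strand the lower coordinate is the acceptor and the higher one the donor of the back-splice. Spans are end minus start and include introns, so they are not the length of the circle. The files class 13 of them as exonic and circRNA 9 as intronic. Their spans ran from 951 to 41544 bases with a median of 11311.5 bases, against a median of 8809 bases over all 3731 exonic circRNAs.

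The 14 back-splices were built from 5 starts and 9 ends, and 13 of the 14 used at least one end that another Picalm circRNA also used. The start at 154405931 was joined to 7 different ends, which made circRNAs 1 to 7: 154406882, 154411147, 154416574, 154420890, 154425509, 154442136 and 154447475. The start at 154411045 was joined to 2 ends, 154416574 in circRNA 10 and 154425509 in circRNA 11. The start at 154439745 was joined to 3 ends, 154442136 in circRNA 12, 154446214 in circRNA 13 and 154447475 in circRNA 14. The intronic circRNA 9 began at 154411032, 13 bases before the start of circRNAs 10 and 11, and ended at 154425509 with circRNAs 5 and 11. Among all 37 pairs of a listed start with a listed end beyond it, 14 were seen.

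CircRNA 8, from 154406807 to 154418787, was the 1 member with neither end in common with another. Its start lay 75 bases before the end of circRNA 1, so the shortest circle ends just beyond the point where circRNA 8 begins. The spans fall into 9 circRNAs of the upstream part of this stretch, which end by 154425509, and 3 of the downstream part, which begin at 154439745 across a gap of 14236 bases. CircRNAs 6 and 7 bridged that gap by joining the first start to the downstream ends 154442136 and 154447475. No circRNA of another host, and none classed as intergenic, used any of these 14 positions. The nearest other circRNA of chromosome 1 belonged to the host listed as l7Rn6 and lay 253818 bases away.

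**Figure D1:**
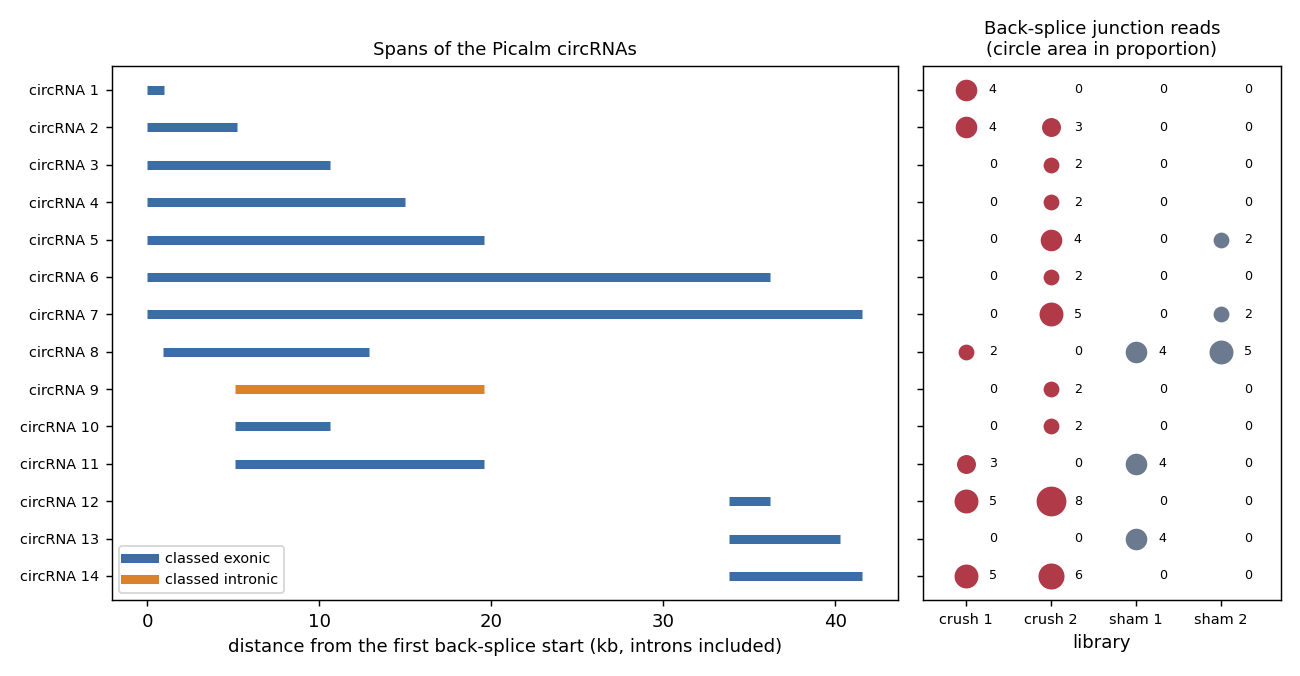
The left panel draws the 14 Picalm circRNAs to scale by distance in kb from the first back-splice start, exonic in blue and intronic in orange. The right panel gives the junction reads of each circRNA in the 2 crush and 2 sham libraries, with circle area in proportion to reads. CircRNAs 12 and 14 carry 5 to 8 reads in both crush libraries and 0 in sham, and circRNA 8 carries 4 and 5 reads in sham.

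In total, Picalm circRNAs had 23 and 36 junction reads in crushed nerve and 12 and 9 in sham nerve, and the groups did not overlap. As SRPBM, the deposited signal that scales junction reads by a constant of each library, that was 1.91 ± 0.34 in crushed nerve and 0.791 ± 0.118 in sham nerve (SD, n = 2), 2.41 times as high. Picalm took 0.279% (95% exact Clopper-Pearson interval 0.177% to 0.418%) and 0.399% (0.279% to 0.552%) of all junction reads in the crush libraries, against 0.133% (0.0688% to 0.232%) and 0.103% (0.0472% to 0.196%) in the sham libraries. Such intervals cover counting error only. Among host genes Picalm ranked 45 and 27 by junction reads in crushed nerve and 114 and 152 in sham nerve. In whole nerve, more cells with these circRNAs and more circRNA per cell cannot be told apart.

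The model fitted over 434 host genes (edgeR quasi-likelihood, TMM scaling) gave Picalm a log2 difference of 1.69 ± 0.48 (SE), crush minus sham. The median over the tested hosts was 0.11 on that scale. Library totals from the SRPBM constants moved this median to -0.30 and the Picalm value to 1.26, so the distance between them changed little. Groups that do not overlap, with crush above, were found for 25.3% of tested hosts, and adjusted p fell below 0.05 with crush higher for 1.84%. Since Picalm was picked on this contrast, nothing is read from its place among them.

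More kinds of Picalm circle were called in crushed nerve. Of the 14, 6 and 10 were called in crush replicates 1 and 2, against 3 and 3 in the sham libraries. Over all hosts and intergenic circRNAs the caller listed 1785 and 2022 in these crush libraries, against 1704 and 1711 in the sham libraries, so crush replicate 2 had the most in both counts. The reads per called circRNA were 3.83 and 3.6 in crushed nerve and 4.0 and 3.0 in sham nerve. With no count listed between 0 and 2, and few reads per circle in every library, this ratio has little room to differ. Both groups used several positions: 4 and 4 of the 5 starts in crushed nerve against 3 and 2 in sham nerve, and 6 and 6 of the 9 ends in crushed nerve against 3 and 3 in sham nerve. By group, 9 circRNAs were called in crushed nerve alone, with 45 reads, 1 in sham nerve alone, with 4 reads, and 4 in both groups. Over all 4942 circRNAs these numbers were 2170, 1816 and 956. The 4 in both groups had 5 and 9 reads in crushed nerve and 8 and 9 in sham nerve. Calls are sparse at this depth: 7 of the 14 (50.0%) were called in 1 library, against 72.6% of all circRNAs, none in all 4, and no count above 0 was lower than 2. A listed 0 therefore does not show that no read was present.

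The downstream circles that start at 154439745 held the highest counts of the crush libraries. CircRNA 12, 154439745 to 154442136 and 2391 bases in span, had 5 and 8 reads in crushed nerve and 0 and 0 in sham nerve. It took 21.7% (7.46% to 43.7%) and 22.2% (10.1% to 39.2%) of the Picalm reads in the crush libraries, the highest share of the host in each, tied with circRNA 14 in crush replicate 1. CircRNA 14, 154439745 to 154447475 and 7730 bases in span, had 5 and 6 reads in crushed nerve and 0 and 0 in sham nerve. It took 21.7% (7.46% to 43.7%) and 16.7% (6.37% to 32.8%) of the Picalm reads in crushed nerve. Both circles were thus seen in each crush library and in neither sham library.

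Against a floor of 3 reads in each sham library, circRNA 12 was 1.85-fold and circRNA 14 1.59-fold higher in crushed nerve in SRPBM. These folds hold provided that a listed 0 means few reads. They take the crush counts as exact and so leave out their counting error. CircRNA 13 shares the start of circRNAs 12 and 14 and ends between them, at 154446214. It was called in sham nerve alone, with 0 and 0 reads in crushed nerve and 4 and 0 in sham nerve. Together the 3 had 10 and 14 reads in crushed nerve and 4 and 0 in sham nerve, or 0.781 ± 0.079 against 0.146 ± 0.206 SRPBM (SD, n = 2).

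CircRNAs 12 and 14 were the 2 of the 14 with enough reads to be tested one by one, at least 5 in at least 2 libraries, and both passed the circRNA test (edgeR, adjusted p under 0.05). Over all 428 circRNAs tested, 11.9% passed. Both members came through the filter by their crush libraries alone and had to differ, so the count is not a result about Picalm. It was 0 without sham replicate 2, and 0 in the fits without a filter, with a filter of 2 reads, and with the replicate number as a block.

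The circles that start at 154405931, the most used acceptor, had 8 and 18 reads in crushed nerve and 0 and 4 in sham nerve, or 0.828 ± 0.351 against 0.157 ± 0.222 SRPBM. CircRNA 2, to 154411147, had 4 and 3 reads in crushed nerve and 0 and 0 in sham nerve, and it is the other member called in both crush libraries. CircRNA 1, the shortest with 951 bases, had 4 and 0 reads in crushed nerve and 0 and 0 in sham nerve. CircRNA 5, to 154425509, had 0 and 4 reads in crushed nerve and 0 and 2 in sham nerve, and its groups overlapped.

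The bridging circles were not called in replicate 1 of either group. CircRNA 7, to 154447475 and the widest of the 14, had 0 and 5 reads in crushed nerve and 0 and 2 in sham nerve. CircRNA 6, to 154442136, and circRNAs 3 and 4, to 154416574 and 154420890, each had 0 and 2 reads in crushed nerve and none in sham nerve. Of the 7 circles of this start, 6 were called in crush replicate 2 and 2 in crush replicate 1, so their number differed between the crush libraries too.

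Of the circles that start near 154411045, circRNA 11, ending at 154425509, had 3 and 0 reads in crushed nerve and 4 and 0 in sham nerve. Its 4 reads were a joint highest count of sham replicate 1, with circRNAs 8 and 13. CircRNA 10, 154411045 to 154416574, and the intronic circRNA 9 each had 0 and 2 reads in crushed nerve and 0 and 0 in sham nerve. CircRNA 9 and circRNA 11 differ by the 13 bases at their start and were not called in the same library. Whether these are 2 acceptors or 2 alignments of 1 junction was not tested.

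CircRNA 8 was the most read Picalm circle of sham nerve and was lower in crushed nerve, with 2 and 0 reads against 4 and 5 in sham nerve, or 0.073 ± 0.103 against 0.342 ± 0.072 SRPBM (SD, n = 2). It took 8.70% (1.07% to 28%) of Picalm reads in crush replicate 1 and was listed at 0 of 36 in crush replicate 2, against 33.3% (9.92% to 65.1%) and 55.6% (21.2% to 86.3%) in the sham libraries. The intervals of crush replicate 1 and of both sham libraries overlap. That of crush replicate 2 (0% to 9.74%) ends below both sham intervals, provided that its listed 0 means no read. It was called in 3 libraries, more than any other Picalm circRNA, and had too few reads to be tested. The other 13 circRNAs, all of which share an end with another, had 21 and 36 reads in crushed nerve and 8 and 4 in sham nerve.

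The order of the circles by mean SRPBM was not the same in the groups. In crushed nerve it began with circRNA 12 (0.420 ± 0.082), circRNA 14 (0.361 ± 0.003) and circRNA 2 (0.235 ± 0.078), and in sham nerve with circRNA 8 (0.342 ± 0.072) and then circRNAs 11 and 13 (0.146 ± 0.206 each; SD, n = 2). CircRNAs 12 and 14 do not differ beyond the spread of their crush libraries, nor does circRNA 8 lie beyond the spread of circRNAs 11 and 13 in sham nerve. Both crush libraries lay above both sham libraries for 3 of the 14 circRNAs (2, 12 and 14), and over all 4942 listed circRNAs this share was 6.39%. Both lay below for circRNA 8 alone, and over all listed circRNAs that share was 8.13%. A circRNA called in 1 library cannot lie apart in this way, which holds for 72.6% of all circRNAs and 50% of the members. Picalm was also picked for its higher crush reads, so these counts are not a result about its circRNAs.

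Taken by position rather than by circle, the groups lay apart at some splice sites and overlapped at others. The donors at 154442136 and 154447475, each used by a downstream and a bridging circle, were both higher in the crush libraries. That at 154442136 had 5 and 10 reads in crushed nerve, against 0 and 0 in sham nerve, and that at 154447475 had 5 and 11, against 0 and 2. Most of these crush reads were those of circRNA 12 (5 and 8) and circRNA 14 (5 and 6), so these donors mostly repeat those circles. The donor at 154425509, used by 3 circles, had 3 and 6 reads in crushed nerve and 4 and 2 in sham nerve, and its groups overlapped. The acceptor at 154411045 had 3 and 2 reads in crushed nerve and 4 and 0 in sham nerve, which also overlapped. With so few reads, an overlap does not show that a site was unchanged. Crush also lay above sham at the acceptors 154405931 and 154439745 and at the donor 154411147 of circRNA 2. It lay below at both ends of circRNA 8, and the groups overlapped at the remaining positions. The crush reads at 154439745 were all of circRNAs 12 and 14, and 154411147 was used by circRNA 2 alone. The share of positions with groups apart was not computed over all circRNAs. Picalm was picked on this contrast, so these positions are a description only.

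**Figure D2:**
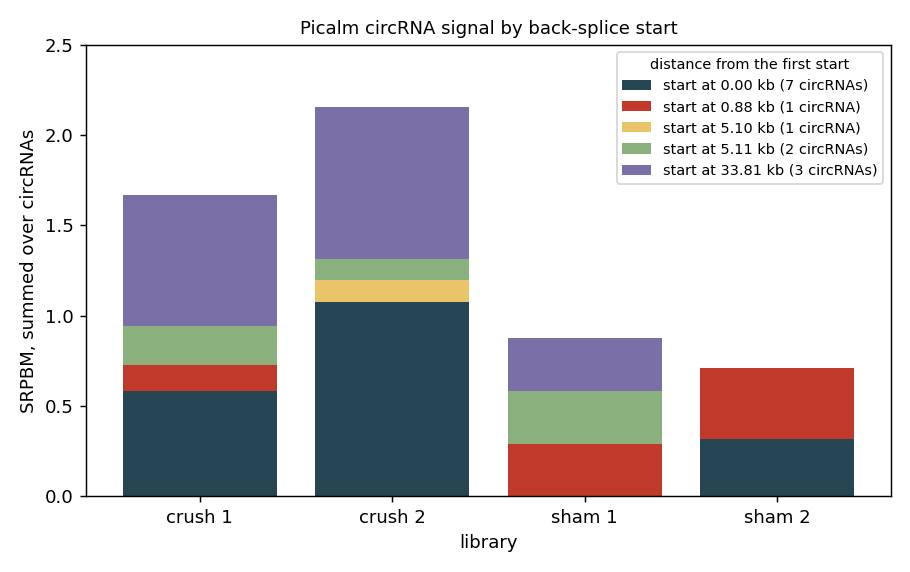
Bars stack the SRPBM of the Picalm circRNAs in each library by the back-splice start they use, given as distance in kb from the first start. The starts at 0 and 33.81 kb make up most of both crush bars, and the start of circRNA 8 at 0.88 kb is present in both sham bars and in crush replicate 1.

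Picalm was set beside the other 6 hosts with at least 13 circRNAs for the spread of its reads. Its top circRNA held 21.7% and 22.2% of its reads in crushed nerve and 33.3% and 55.6% in sham nerve. For the other 6 the top share was 20% to 100% in crushed nerve and 22.8% to 46.2% in sham nerve, where few reads lie behind the highest shares. Pooled over the 4 libraries, which raises evenness where groups differ in their top circle as in Picalm, the effective number of circRNAs (the inverse of the summed squared shares) was 9.91 for Picalm, 10.3 for the dystrophin relative Utrn, 8.65 for the Rab GTPase-activating protein gene Evi5, 7.73 for the histone methyltransferase gene Ash1l, and 5.99 for Atrnl1, the lowest. Between 69.2% and 92.9% of the circRNAs of these hosts shared an end with another of the same host, and Picalm, with 92.9%, was at the top with Evi5. Its start at 154405931 served 7 circRNAs, against 3 to 6 for the most used lower coordinate of the others. On the minus strand the lower coordinate is the donor, and strand was not taken into account, so acceptors as such were not compared. These are descriptions of 7 hosts chosen for their number of circRNAs, with no test.

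Of these hosts, Picalm had the largest fitted difference between crush and sham. The Rab regulator gene Dennd4a had 30 and 26 reads in crushed nerve and 14 and 16 in sham nerve, a log2 difference of 1.11 ± 0.45 (SE). Evi5 had 24 and 17 reads in crushed nerve and 9 and 13 in sham nerve, 1.10 ± 0.54. Atrnl1 had 39 and 42 reads in crushed nerve and 25 and 30 in sham nerve, 0.76 ± 0.39. Vps13a had 16 and 13 reads in crushed nerve and 15 and 12 in sham nerve, 0.32 ± 0.49. Ash1l had 58 and 68 in crushed nerve and 64 and 57 in sham nerve, 0.27 ± 0.30, and Utrn had 4 and 9 in crushed nerve and 11 and 16 in sham nerve, -0.85 ± 0.63. None of the 7, Picalm included, passed the host test (edgeR; adjusted p from 0.189 to 0.734 for the other 6), in which 2.30% of all tested hosts passed in either direction. Whether Picalm differs from them in its response was not tested.

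**Figure D3:**
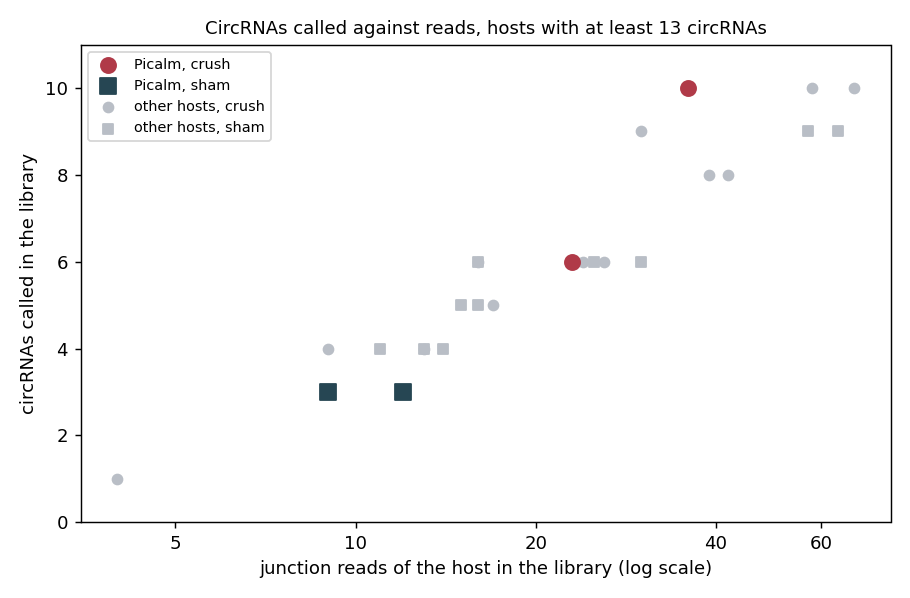
Each point is a host with at least 13 circRNAs in 1 library, with the host's junction reads on a log axis and the number of its circRNAs called on the other axis. The Picalm points (large, red circles for crush and dark squares for sham) lie at 23 and 36 reads with 6 and 10 circRNAs in crushed nerve and at 12 and 9 reads with 3 and 3 in sham nerve, along the same rise as the other hosts.

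The other genes of clathrin-mediated endocytosis gave few circRNAs. Of 76 genes listed by role, 19 had circRNAs, 2 had enough reads to be tested as hosts, and 0 passed (edgeR, adjusted p under 0.05), where 2.30% of all tested hosts did. With so few tested, the count of 0 says little. At an unadjusted p under 0.05 it was 0 of 2, against 111 of 434 hosts, and DESeq2 also called 0. With at least 2 reads in 2 libraries, 4 of 10 endocytosis hosts had an unadjusted p under 0.05, against 293 of 1125 hosts, and 0 passed after adjustment. All 19 together had 33 and 45 reads in crushed nerve and 26 and 36 in sham nerve, or 2.54 ± 0.21 against 2.36 ± 0.66 SRPBM (SD, n = 2). Summed over these 19 genes the groups thus differed by less than the spread of the sham libraries.

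Of 6 coat and uncoating genes, the clathrin heavy chain gene Cltc had 3 and 4 reads in crushed nerve and 0 and 0 in sham nerve, and Gak, which encodes a kinase of coat release, had 3 and 0 in crushed nerve and none in sham nerve. Of 32 adaptor and assembly genes 6 had circRNAs. Ap2a2, for an alpha subunit of AP-2, had 0 and 4 reads in crushed nerve and 6 and 7 in sham nerve, a log2 difference of -1.46 ± 1.24 (SE; edgeR, adjusted p = 0.501). Reps2, for an EH domain protein of endocytosis, had 3 and 11 in crushed nerve and 0 and 2 in sham nerve. Ap2a2 and Reps2 thus lay on opposite sides.

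Of 18 genes for membrane bending and scission 4 had circRNAs. The F-BAR protein gene Fnbp1l had 5 and 0 reads in crushed nerve and none in sham nerve, and the F-BAR gene Pacsin2 and the dynamin gene Dnm3 each had 0 and 0 in crushed nerve and 0 and 2 in sham nerve. Of 10 phosphoinositide enzyme genes 5 had circRNAs. Pik3c2a, a phosphoinositide kinase of coat maturation, had 10 and 7 reads over its 7 circRNAs in crushed nerve and 14 and 8 in sham nerve, -0.14 ± 0.59 (edgeR, adjusted p = 0.935). Pip5k1b, which makes the lipid that Picalm and AP-2 bind, had 0 and 0 in crushed nerve and 4 and 4 in sham nerve. Among 10 cargo genes, the amyloid precursor gene App had 0 and 4 reads in crushed nerve and 0 and 3 in sham nerve, and the transferrin receptor gene Tfrc 0 and 2 in both groups.

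The hosts whose levels over the 4 libraries lay nearest to those of Picalm, by Euclidean distance of log2(SRPBM + 0.1), were Gpatch2 (0.708), Cdyl (0.818), Agtpbp1 (0.861), Prkd3 (0.907) and Rnf169 (0.956). Gpatch2, a G-patch protein gene, had 25 and 41 reads over its 4 circRNAs in crushed nerve and 7 and 9 in sham nerve. Cdyl, a gene for a chromodomain corepressor, had 35 and 49 reads over its 5 circRNAs in crushed nerve and 9 and 10 in sham nerve. Agtpbp1, which encodes an enzyme that trims glutamates from tubulin, had 25 and 21 reads over its 12 circRNAs in crushed nerve and 10 and 12 in sham nerve. Prkd3, a protein kinase gene, had 18 and 22 reads on its 1 circRNA in crushed nerve and 8 and 9 in sham nerve. Rnf169, a ubiquitin-binding gene of the response to DNA breaks, had 21 and 24 reads over its 2 circRNAs in crushed nerve and 15 and 5 in sham nerve, the widest spread of the 5 among sham libraries. These hosts were picked for their likeness, so their difference between groups carries no test.

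**Figure D4:**
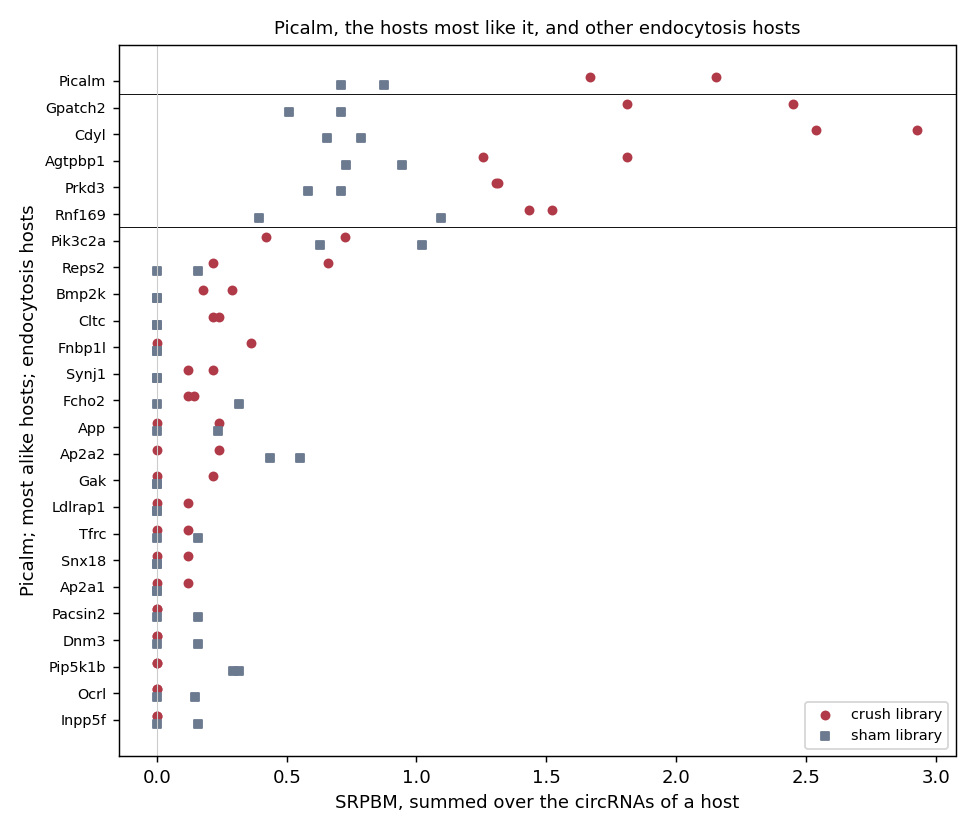
Each point is 1 library, with SRPBM summed over the circRNAs of a host: red circles for crush, grey squares for sham. Picalm stands on top, followed by the 5 hosts with the most similar levels and the 19 other endocytosis hosts, whose libraries lie below both crush libraries of Picalm.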

How the data were processed

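Per the labels' protocols, total RNA was extracted with an RNeasy kit and made into paired-end VAHTS libraries. CASAVA 1.8, BWA, edgeR and the build Rnor_6.0 stand in the submitters' processing notes, with no step named. The name of the circRNA caller was not given in the sources used here. For each library the authors deposited raw counts of back-splice junction reads and, per the file headers, SRPBM, a signal equal to the count times 1 constant per library.

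Reads were summed per host, leaving out 3 circRNAs with 2 hosts. Counts of all circRNAs and all hosts were fitted with edgeR 4.0.16 (R 4.3.3; quasi-likelihood test, TMM, at least 5 reads in at least 2 libraries, two-sided, Benjamini-Hochberg), after tests on simulated data. DESeq2 1.42.0, other filters, SRPBM library totals, a replicate block and leaving out each library were the alternatives. The members and lists were chosen with earlier results of these data known. Named are all Picalm circRNAs, the 2 highest hosts of each list (3 where tied), any list member that passed, the 5 nearest hosts and hosts with at least 13 circRNAs; the few markers named as absent were picked by hand. Ryr1 and Mrc1 were named because they went against the rest of their lists. Symbols of 2174 of 2327 hosts matched the RefSeq table of GRCr8 and 99 matched through a synonym.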

Additional observations from a re-analysis of the deposited data

How the results depend on the processing

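The log2 difference of summed Picalm reads, 1.69 with TMM, was positive in all 9 alternatives: 1.26 with library totals from the SRPBM constants, 1.52 with no filter and with a filter of 2 reads, 1.70 with DESeq2, and 1.47 to 2.04 when 1 library was left out. With the replicate number as a block it was 1.67. Picalm did not pass the host test in any of these fits (edgeR and DESeq2, adjusted p 0.064 to 0.332). Same-numbered libraries deviated from their group means with a correlation of -0.055 over hosts. Counting error at so few reads can hide a pairing, so this value does not settle it. The main fit took the libraries as unpaired. The number of Picalm circRNAs past the threshold was 2, and 2 with SRPBM totals, but 0 without a filter, 0 with at least 2 reads in 2 libraries, 0 under the block, and 0 to 2 without 1 sham library. Under the block no circRNA of any host passed, and 53 had an unadjusted p under 0.05 (edgeR). Without the block, 51 of 428 passed and 119 had an unadjusted p under 0.05. Without either crush library neither was tested, and DESeq2 gave neither an adjusted p. Hosts past the threshold numbered 10, against 32 with DESeq2, 39 without a filter, 24 under the block, 0 with at least 2 reads and 0 to 84 with 1 library left out. No endocytosis host passed in the 10 fits, in which 1 to 19 were tested; without crush replicate 2, 1 of 2 had an unadjusted p under 0.05. With 2 to 8 reads behind each circle in a library, differences between single circles were mostly not detectable.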
